A study of Homo sapiens with 18 samples.

Results

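The proteasome subunit genes were followed in 2 lines of human colon cancer cells, HT-29 and HCT116, after treatment with erastin (ER), a small molecule that triggers ferroptosis, an iron-dependent form of cell death. The members were the transcripts annotated with a single gene whose symbol is PSMA, PSMB, PSMC, PSMD or PSME followed by digits only, with pseudogenes left out and the transcript of highest mean signal kept for each gene. This gave 39 genes of the 33616 genes named by a single-gene transcript. RefSeq lists 43 genes that fit the symbol rule. Of the other 4, PSME2 shares its transcript's annotation with a second gene, and PSMC5, PSMD7 and PSMD13 were not analysed here. All 39 members entered the tests, since no filter on low signal was applied.

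RNA was measured on 18 arrays in 6 groups of 3. In each cell line the groups were untreated cells, cells treated with 2.5 µM ER for 4 h and cells treated with 2.5 µM ER for 24 h. No other agent or genetic change is stated, and the untreated group of a cell line serves both times. The stock of ER was dissolved in DMSO, and no vehicle or time in culture is stated for the untreated arrays, so ER cannot be told apart from either. Each group holds 3 independent experiments per the methods. The values are deposited log2 signals per transcript, and a difference is the mean log2 signal after ER minus that of untreated cells, with its standard error (SE) from limma. The arrays measure bulk RNA, so fewer cells with a transcript and less of it per cell cannot be told apart.

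The 26S proteasome degrades proteins that carry a ubiquitin chain. Its 20S core is a barrel of rings built from alpha subunits (PSMA genes) and beta subunits (PSMB genes), some of which hold the cutting sites. The 19S cap binds the substrate, removes ubiquitin and unfolds the chain with a ring of ATPases (PSMC genes), while the PSMD genes encode the rest of the cap and some chaperones that help to build it. Interferon-responsive cells can replace PSMB6, PSMB7 and PSMB5 with PSMB9, PSMB10 and PSMB8, which gives the immunoproteasome, and PSME genes encode activators that open the core without the 19S cap. When proteasome capacity is short, the transcription factor NFE2L1 binds antioxidant response elements and raises many subunit genes together, which is why these elements were looked for in the promoters.

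Promoters of 34 of the 39 members were matched by symbol, each from 250 bases before to 50 bases after the start site (RefSeq, GRCh38.p14). PSMA7, PSMB1, PSMB6, PSMB7 and PSMD4 had none to match. The core of the antioxidant response element, TGACNNNGC on either strand, was found in 10 of 34 member promoters (29.4%), against 3702 of 27305 promoters of all genes (13.6%). The 10 were those of PSMB3, PSMB9, PSMC4, PSMD1, PSMD3, PSMD5, PSMD9, PSMD12, PSME1 and PSME4. By role they comprised 0 of 7 alpha ring genes, 1 of 4 beta ring genes, 1 of 5 ATPase genes, 3 of 8 other cap genes, 2 of 3 cap chaperones, 2 of 3 activators and 1 of 3 immunoproteasome genes. The promoters of 4 members are printed 5′ to 3′ on the strand of the gene, with the matched bases in capitals. The first 3 belong to cap genes that were called lower at 24 h in HCT116 cells. PSMC4 and PSMD3 were called against untreated cells, and PSMD12 only against the 4 h arrays. PSME1 is shown because its signal lay the other way. The 4 promoters lie at chr19:39970915-39971214 (plus strand, PSMC4), chr17:39980557-39980856 (plus strand, PSMD3), chr17:67366528-67366827 (minus strand, PSMD12) and chr14:24135944-24136243 (plus strand, PSME1).
PSMC4: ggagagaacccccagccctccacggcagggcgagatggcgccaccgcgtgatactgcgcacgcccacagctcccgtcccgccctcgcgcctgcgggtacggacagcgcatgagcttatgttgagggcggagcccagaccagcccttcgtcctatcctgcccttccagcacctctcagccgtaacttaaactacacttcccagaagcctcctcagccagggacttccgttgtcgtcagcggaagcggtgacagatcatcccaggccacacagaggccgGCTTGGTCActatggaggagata
PSMD3: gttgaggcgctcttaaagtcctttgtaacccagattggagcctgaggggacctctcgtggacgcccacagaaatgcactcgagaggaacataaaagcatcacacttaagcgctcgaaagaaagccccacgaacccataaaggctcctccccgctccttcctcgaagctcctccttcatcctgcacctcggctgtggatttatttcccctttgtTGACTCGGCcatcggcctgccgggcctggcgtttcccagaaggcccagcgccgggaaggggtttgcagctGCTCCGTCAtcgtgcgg
PSMD12: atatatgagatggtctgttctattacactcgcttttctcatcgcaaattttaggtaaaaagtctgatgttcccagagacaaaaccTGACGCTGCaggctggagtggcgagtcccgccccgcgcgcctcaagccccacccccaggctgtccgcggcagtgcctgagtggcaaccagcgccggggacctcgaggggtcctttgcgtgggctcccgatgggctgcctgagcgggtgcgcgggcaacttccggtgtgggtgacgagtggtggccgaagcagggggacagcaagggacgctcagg
PSME1: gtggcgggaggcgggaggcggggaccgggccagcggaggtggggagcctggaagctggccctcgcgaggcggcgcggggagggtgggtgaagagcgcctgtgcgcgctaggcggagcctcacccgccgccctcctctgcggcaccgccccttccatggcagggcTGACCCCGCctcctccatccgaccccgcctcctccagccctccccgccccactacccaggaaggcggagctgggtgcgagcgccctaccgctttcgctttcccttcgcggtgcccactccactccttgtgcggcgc
The match in PSMC4 began 28 bases after the start site on the opposite strand. PSMD3 held a match on each strand, that on the gene's strand 37 bases before the start site. In PSMD12 and PSME1 the matches lay 165 and 86 bases before it, on the gene's strand. The CCAAT box (CCAAT, either strand) was found in 16 member promoters (47.1%, against 35.7% of all). A match is a description of letters, not evidence of binding.

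Array medians over all transcripts lay between 5.44 and 5.61. Of 7 epithelial markers EPCAM, CDH1, KRT8, KRT18 and KRT19 had 10.04 or more on all 18 arrays, whereas CDH17 (4.52 to 6.54) lay near the array medians. VIL1 also lay near them in HCT116 cells (5.05 to 6.19) and on the HT-29 arrays of replicates 2 and 3 (5.48 to 6.48). Its signals on the HT-29 arrays of replicate 1 were 7.96 to 8.88. The leukocyte, fibroblast and endothelial markers lay between 4.57 and 7.81 except for COL1A1, a collagen of fibroblasts, which had 8.94 to 9.60 on all arrays. The HT-29 arrays of replicate 1 stood apart from those of replicates 2 and 3: lysozyme (LYZ) had 17.48 after 24 h, 16.95 after 4 h and 16.94 untreated on the replicate 1 arrays, against 10.12 to 11.77 on the other 6. HCT116 arrays had 5.54 to 6.13. KRT20, CEACAM5, CEACAM6, LGALS4 and VIL1 were likewise highest on replicate 1, whereas CDX2, a transcription factor of the gut, was lowest there, at 8.202 or less against 8.59 to 9.48. On the HT-29 arrays of replicates 2 and 3, LYZ, KRT20, CEACAM5, CEACAM6 and LGALS4 lay above every HCT116 array. VIL1 and CDX2 on these arrays overlapped HCT116 cells, where CDX2 had 8.38 to 9.48. The labels do not explain the difference between the replicates. The part of this in the proteasome results, and in the agreement between the cell lines, was not tested.

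After 24 h of ER the proteasome genes lay mostly below untreated cells in both cell lines, and the cap genes lay lowest. In HT-29 cells 34 of 39 members were lower in direction, with a median difference of -0.42, whereas the median of all 135750 transcripts was 0.02 and 47.6% of them were below 0. In HCT116 cells 30 of 39 were lower, with a median of -0.38, against -0.02 for all transcripts, of which 52.4% were below 0. Without the 24 h array of replicate 1, 26 members were lower in HT-29 (median -0.26) and 27 in HCT116 cells (median -0.19), and with replicates 2 and 3 alone 26 (median -0.22) and 27 (median -0.17). The members are brighter than most transcripts, so the 5941 single-gene transcripts with a mean signal of at least 10 were set beside them. Their medians were -0.10 in HT-29 and 0.07 in HCT116 cells, with 59.7% and 43.3% below 0.

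Few single members passed the test. Differentially expressed transcripts (DETs) were called at the thresholds of the methods, a fold of 1.2 or more with an unadjusted p no higher than 0.005, but the p came from limma and not from the Student's test of the methods. In HT-29 cells 2 members were DETs at 24 h, both lower, PSMC1 and PSMD11 (all transcripts 0.377%, lower 0.144%). Among the bright single-gene transcripts the shares were 1.82% and, lower, 1.21%. In HCT116 cells 2 members were DETs at 24 h, both lower, PSMC4 and PSMD3 (all transcripts 1.24%, lower 0.413%). The bright single-gene transcripts had shares of 3.89% and, lower, 0.623% there. The methods name a Student's t-test with p-values from permutation, and here it was run without permutation. With this t-test PSMD11 kept its call, and PSMC1, PSMC4 and PSMD3 lost theirs. PSMD6 in HT-29 (lower) and PSMD10 in HCT116 cells (higher) were called. In the limma fits without the 24 h array of replicate 1, 0 members were DETs in either line. With Benjamini-Hochberg adjustment over all transcripts in limma, 0 members passed at 0.05 in either cell line, where 3 and 11 transcripts of the whole table did (0.00221% and 0.0081%). The adjusted p of the members was 1 throughout in HT-29 cells and 0.384 or more in HCT116 cells. An unadjusted p under 0.05 was found for 12 members in HT-29 cells (3.69% of all transcripts and 10.1% of the bright single-gene ones). It was found for 14 in HCT116 cells (8.53% and 18%), and these members were lower in each case. PSMB2, PSMC1, PSMC2, PSMC3, PSMD3, PSMD6, PSMD11, PSMD14 and PSME3 had it in both lines. Every 24 h array lay below every untreated array for 16 members in HT-29 (4.55% of all transcripts, 12.3% of the bright single-gene ones) and for 13 in HCT116 cells (6.83% and 6.7%). Every 24 h array lay above for 0 members in HT-29 (5.12% and 4.93%) and 2 in HCT116 cells, PSMD10 and PSME1 (5.94% and 13.2%).

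**Figure D1:**
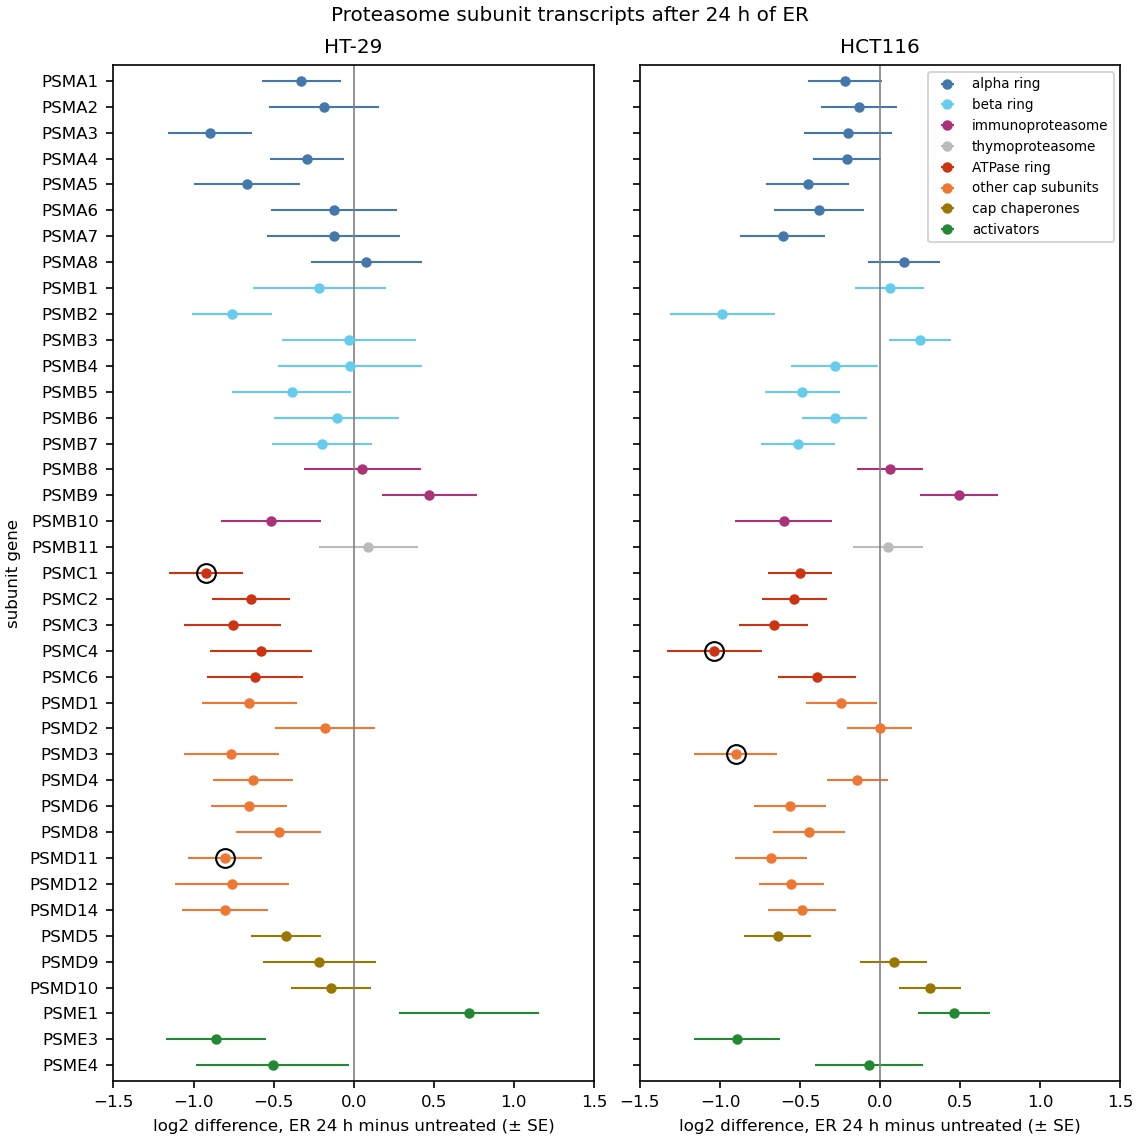
Log2 difference of each of the 39 subunit transcripts, ER 24 h minus untreated (x axis, points, with lines of 1 SE from limma), by subunit gene (y axis) in HT-29 (left) and HCT116 cells (right), 3 arrays per group. Colours mark the role and circles mark the DETs, and all 14 cap genes (red and orange) lie left of 0 in both cell lines.

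The ATPase ring of the cap unfolds the substrate and feeds it into the core. The kept transcripts of all 5 measured members were lower in both cell lines at 24 h, with medians of -0.64 in HT-29 and -0.54 in HCT116 cells. PSMC1 had 13.74, 13.72 and 13.71 in untreated HT-29 cells, 13.62, 13.35 and 13.59 at 4 h, and 12.63, 12.65 and 13.13 at 24 h (replicates 1 to 3). In HCT116 cells it had 13.70, 13.82 and 13.38 untreated, 13.99, 13.93 and 13.96 at 4 h, and 12.96, 13.12 and 13.32 at 24 h. The 24 h and untreated arrays did not overlap in either line. The difference was -0.92 (SE 0.23, adjusted p = 1 in limma) in HT-29 and -0.50 (SE 0.20, adjusted p = 0.517) in HCT116 cells, so that only the HT-29 difference made PSMC1 a DET. The difference between the lines was -0.42 (SE 0.28). A second PSMC1 transcript was -0.795 (SE 0.33) in HT-29 and -0.54 (SE 0.20) in HCT116 cells, and was not a DET in either. With the mean over its transcripts PSMC1 was no longer a DET in HT-29 cells, at -0.86.

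PSMC4 had 14.26, 13.67 and 14.18 in untreated HT-29 cells, 13.95, 14.36 and 14.59 at 4 h, and 12.81, 13.90 and 13.65 at 24 h, with overlapping groups. Its HCT116 signals were 14.31, 14.33 and 14.77 untreated, 14.47, 14.64 and 14.45 at 4 h, and 12.81, 13.36 and 14.15 at 24 h. Every HCT116 array at 24 h lay below every untreated array, but the 24 h arrays spread more widely than the rest. In HCT116 cells PSMC4 fell by 1.035 on the log2 scale (SE 0.29, adjusted p = 0.384 in limma), and was -0.58 in HT-29 cells (SE 0.32). Its promoter is the first of those printed. The transcript kept for PSMC4 by its mean signal is an unmapped one with no genome position in its name. Of the 6 other transcripts with this symbol, the brightest was a DET in both cell lines, at -0.93 (SE 0.25) in HT-29 and -1.20 (SE 0.27) in HCT116 cells. None of the other 5 was a DET in either line. PSMC2, PSMC3 and PSMC6, the remaining ATPases, had differences of -0.64, -0.75 and -0.61 in HT-29 cells. In HCT116 cells the values were -0.54, -0.67 and -0.39. None of these 3 was a DET at 24 h against untreated cells. A second PSMC6 transcript was -1.03 (SE 0.45) in HT-29 but 0.25 (SE 0.26) in HCT116 cells. The direction of PSMC6 in HCT116 cells thus depended on the transcript. With the mean over the transcripts of each gene, 14 of 14 cap genes were lower in each line.

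The other cap subunits hold the substrate, remove its ubiquitin and brace the cap. All 9 were lower in direction in both lines, with medians of -0.66 in HT-29 and -0.49 in HCT116 cells. PSMD11, a lid subunit that clamps cap to core, had 15.56, 15.15 and 15.41 in untreated HT-29 cells, 15.47, 15.07 and 15.41 at 4 h, and 14.51, 14.49 and 14.71 at 24 h. The HCT116 signals were 15.41, 15.39 and 15.36 untreated, 15.53, 15.67 and 15.57 at 4 h, and 14.22, 14.87 and 15.02 at 24 h. All 24 h arrays of both lines lay below the untreated arrays and below the 4 h arrays. The difference from untreated cells was -0.80 (SE 0.23, adjusted p = 1 in limma) in HT-29 and -0.68 (SE 0.22, adjusted p = 0.448) in HCT116 cells.

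PSMD3, a lid scaffold subunit, had 14.69, 14.41 and 14.87 in untreated HT-29 cells, 14.56, 14.45 and 15.02 at 4 h, and 13.34, 13.97 and 14.36 at 24 h. The HCT116 arrays had 14.78, 14.63 and 14.97 untreated, 14.96, 14.91 and 14.69 at 4 h, and 13.27, 14.20 and 14.20 at 24 h. The replicate 1 array at 24 h was the lowest in both lines, and no 24 h array reached the untreated arrays of its line. The difference was -0.76 (SE 0.30) in HT-29 and -0.90 (SE 0.26, adjusted p = 0.386 in limma) in HCT116 cells. Leaving out the replicate 1 array at 24 h gave -0.49 (SE 0.29) in HT-29 and -0.59 (SE 0.22) in HCT116 cells. PSMD14, the deubiquitinase of the cap, was -0.80 (SE 0.27) in HT-29 and -0.49 (SE 0.21) in HCT116 cells, with no overlap of 24 h and untreated arrays in either line. PSMD12, a lid subunit whose promoter is printed above, was -0.76 (SE 0.36) in HT-29 and -0.55 (SE 0.20) in HCT116 cells, and PSMD6, also of the lid, was -0.66 (SE 0.24) and -0.56 (SE 0.23). PSMD2, a scaffold of the cap base that docks ubiquitin carriers, stood near untreated cells, with -0.18 (SE 0.31) in HT-29 and -0.004 (SE 0.21) in HCT116 cells. PSMD1, the other scaffold of the base, was -0.65 (SE 0.30) in HT-29 and -0.24 (SE 0.22) in HCT116 cells.

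**Figure D2:**
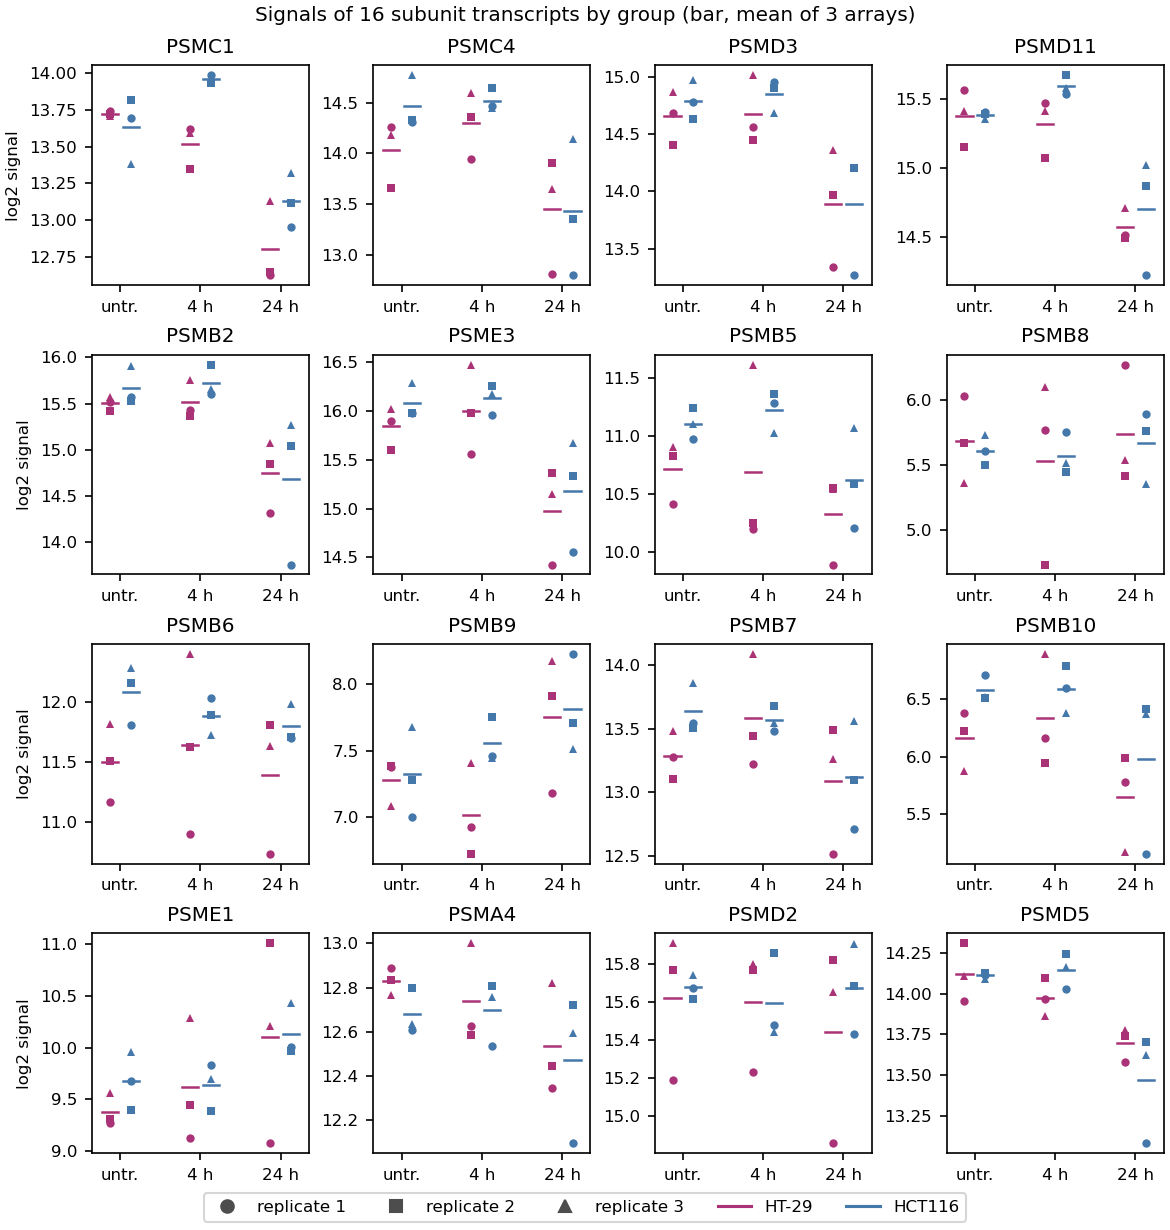
Log2 signal (y axis) of 16 subunit transcripts on each array by group (x axis, untreated as untr., ER 4 h and ER 24 h) for HT-29 (left of each pair) and HCT116, with a bar at the mean of 3 arrays and the marker shape for the replicate. PSMC1, PSMD3, PSMD11, PSMB2, PSME3 and PSMD5 show every 24 h array below every untreated array in both cell lines, and PSMB8, PSMB6 and PSMD2 show overlapping groups.

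The rings of the core differed from untreated cells by less than the cap in the median, and in HT-29 cells their direction rested on a single array. At 24 h 14 of 15 ring genes were lower in HT-29 and 12 of 15 in HCT116 cells, with medians of -0.20 and -0.285, whereas 14 of 14 cap genes were lower in each line with medians of -0.65 and -0.52. No ring gene was a DET at 24 h against untreated cells. PSMA3 in HT-29 cells fell just short, at -0.90 (unadjusted p = 0.00537 in limma), beside -0.80 (unadjusted p = 0.00453 in limma) for the cap gene PSMD11. The alpha ring (8 genes) had medians of -0.24 in HT-29 and -0.21 in HCT116 cells, and the beta ring (7 genes) -0.20 and -0.285. PSMB2, a non-catalytic beta subunit, was the lowest of the rings in HCT116 cells. It had 15.52, 15.42 and 15.57 in untreated HT-29 cells, 15.43, 15.37 and 15.76 at 4 h, and 14.32, 14.85 and 15.07 at 24 h. In HCT116 cells it had 15.57, 15.53 and 15.90 untreated, 15.60, 15.92 and 15.66 at 4 h, and 13.75, 15.03 and 15.26 at 24 h. The 24 h arrays lay below the untreated ones in both lines, at -0.76 (SE 0.25) in HT-29 and -0.99 (SE 0.33) in HCT116 cells. Without the 24 h array of replicate 1 the HCT116 difference was -0.52 (SE 0.23).

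PSMA3, an alpha subunit, was -0.90 (SE 0.26) in HT-29 but -0.20 (SE 0.28) in HCT116 cells. The difference between the lines was -0.69 (SE 0.39), with the lowest unadjusted p of the 39 interactions at 24 h. PSMA5, also of the alpha ring, was -0.67 (SE 0.33) in HT-29 and -0.45 (SE 0.26) in HCT116 cells, and PSMA7 was -0.13 (SE 0.41) and -0.61 (SE 0.26). PSMA1 was -0.33 (SE 0.25) in HT-29 and -0.22 (SE 0.23) in HCT116 cells. PSMB1, PSMB3 and PSMB4, which carry no cutting site, lay between -0.22 and 0.25 in the 2 lines except for PSMB4 in HCT116 cells at -0.28 (SE 0.27). PSMA8, an alpha subunit of the testis, was 0.08 in HT-29 and 0.15 in HCT116 cells, and PSMB11, the beta subunit of the thymus, was 0.09 and 0.05.

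The array of replicate 1 at 24 h had the lowest mean member level of its group in both lines. Relative to the mean of 18 arrays the members averaged -0.62 on that array in HT-29 cells, against -0.23 and -0.13 on the replicate 2 and 3 arrays. In HCT116 cells they averaged -0.49, against -0.07 and 0.04. The bright single-gene transcripts averaged -0.09 and 0.06 on the same replicate 1 arrays. Without the replicate 1 array at 24 h, 7 of 15 ring genes were lower in HT-29 (median 0.04) and 10 of 15 in HCT116 cells (median -0.15). The cap kept its direction, with 13 of 14 genes lower in each line and medians of -0.65 and -0.43. With replicates 2 and 3 alone, 6 ring genes (median 0.06) and 14 cap genes (median -0.56) were lower in HT-29 cells, and 9 ring genes (median -0.05) and 13 cap genes (median -0.41) in HCT116 cells. These fits held 0 DETs among the members. Without the replicate 1 array at 24 h the difference changed sign for 10 of 39 members in HT-29 and 5 in HCT116 cells, and kept its sign but shrank by more than 1.5 times for 8 and 18. Those that changed sign in both lines were PSMB8 and PSMD2.

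**Figure D3:**
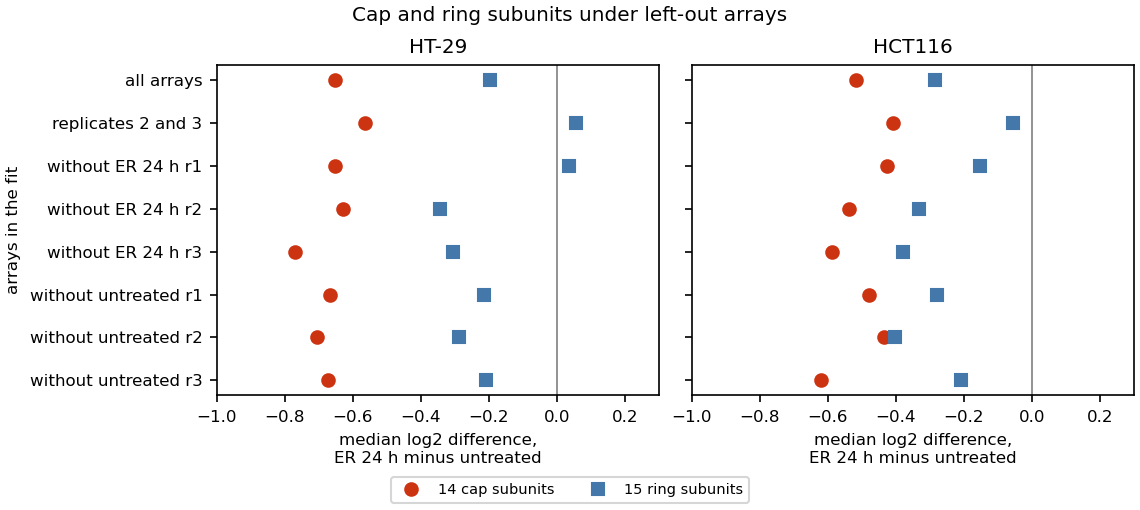
Median log2 difference, ER 24 h minus untreated (x axis), over the 14 cap subunits (circles) and the 15 ring subunits (squares) with all arrays and with arrays left out (y axis), in HT-29 (left) and HCT116 cells (right). The cap medians stay below 0 in each fit shown, whereas the ring medians in HT-29 cells are 0.04 without the replicate 1 array at 24 h and 0.06 with replicates 2 and 3 alone.

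The calls also depended on single arrays. In HT-29 cells PSMC1 was no longer a DET once any of the 3 untreated arrays, or the 24 h array of replicate 1 or 2, was left out. PSMD11 was no longer a DET whichever array was left out, except for the 4 h array of replicate 2. In HCT116 cells PSMC4 was no longer a DET whichever array was left out, except for the 24 h array of replicate 3. PSMD3 kept its call only in the fits without the 24 h array of replicate 2 or of replicate 3. Without that of replicate 3 there were 6 DETs among the members. All these differences stayed below 0.

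Of the 3 immunoproteasome subunits PSMB8 and PSMB9 lay above untreated cells at 24 h in both lines and PSMB10 below, and 0 were DETs. PSMB9, which takes the place of PSMB6, had 7.38, 7.39 and 7.08 in untreated HT-29 cells, 6.93, 6.72 and 7.40 at 4 h, and 7.18, 7.91 and 8.17 at 24 h. Its HCT116 signals were 7.005, 7.28 and 7.68 untreated, 7.46, 7.76 and 7.45 at 4 h, and 8.22, 7.71 and 7.51 at 24 h. The groups overlapped in both lines, and the difference was 0.47 (SE 0.30) in HT-29 and 0.49 (SE 0.25) in HCT116 cells. PSMB10, which takes the place of PSMB7, was -0.51 (SE 0.31) in HT-29 and -0.60 (SE 0.30) in HCT116 cells. Its HCT116 arrays at 24 h had 5.15, 6.42 and 6.37 against 6.71, 6.51 and 6.52 untreated, so that the replicate 1 array made up most of the difference, which was -0.19 (SE 0.22) without it. PSMB8, which takes the place of PSMB5, was 0.05 (SE 0.37) in HT-29 and 0.06 (SE 0.21) in HCT116 cells, at signals of 4.74 to 6.27, near the array medians. Without the 24 h array of replicate 1 it lay below untreated cells, at -0.21 (SE 0.39) in HT-29 and -0.05 (SE 0.23) in HCT116 cells.

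The subunits they replace carry the cutting sites of the standard core. PSMB5 was -0.39 (SE 0.37) in HT-29 and -0.49 (SE 0.23) in HCT116 cells, PSMB6 -0.11 (SE 0.39) and -0.28 (SE 0.20), and PSMB7 -0.20 (SE 0.31) and -0.51 (SE 0.23). Their 24 h and untreated arrays overlapped in both lines. No difference of an immunoproteasome subunit from the subunit it replaces was tested, since these are levels of different probes.

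The activators differed in direction. PSME3, which caps the core in the nucleus, had 15.90, 15.60 and 16.02 in untreated HT-29 cells, 15.56, 15.98 and 16.47 at 4 h, and 14.43, 15.36 and 15.15 at 24 h. The HCT116 signals were 15.98, 15.98 and 16.28 untreated, 15.95, 16.25 and 16.17 at 4 h, and 14.55, 15.33 and 15.67 at 24 h. All 24 h arrays lay below the untreated arrays of their line, and the difference was -0.86 (SE 0.31) in HT-29 and -0.89 (SE 0.27) in HCT116 cells, short of the DET threshold.

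PSME1, a subunit of the interferon-responsive activator, had 9.27, 9.31 and 9.56 in untreated HT-29 cells, 9.13, 9.45 and 10.28 at 4 h, and 9.07, 11.01 and 10.21 at 24 h. The HCT116 arrays had 9.67, 9.39 and 9.95 untreated, 9.83, 9.39 and 9.69 at 4 h, and 10.005, 9.97 and 10.43 at 24 h. All HCT116 arrays at 24 h lay above the untreated ones, by a narrow gap, and in HT-29 cells the groups overlapped because the replicate 1 array was the lowest. The difference was 0.72 (SE 0.44) in HT-29 and 0.46 (SE 0.23) in HCT116 cells. PSME4, an activator of the nucleus and testis, was -0.51 (SE 0.48) in HT-29 and -0.07 (SE 0.34) in HCT116 cells.

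The 3 chaperones of cap assembly differed among themselves. PSMD5 had 13.58, 13.74 and 13.77 at 24 h against 13.96, 14.31 and 14.11 untreated in HT-29 cells, a difference of -0.42 (SE 0.22). On the HCT116 arrays it had 13.08, 13.71 and 13.62 at 24 h against 14.12, 14.13 and 14.09 untreated, a difference of -0.64 (SE 0.21). The groups did not overlap in either line. PSMD10, also known as gankyrin, had 11.19, 11.28 and 11.13 at 24 h against 10.96, 10.85 and 10.86 in untreated HCT116 cells, a difference of 0.31 (SE 0.19), and -0.14 (SE 0.25) in HT-29 cells. PSMD9 was -0.22 (SE 0.35) in HT-29 and 0.08 (SE 0.21) in HCT116 cells.

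**Figure D4:**
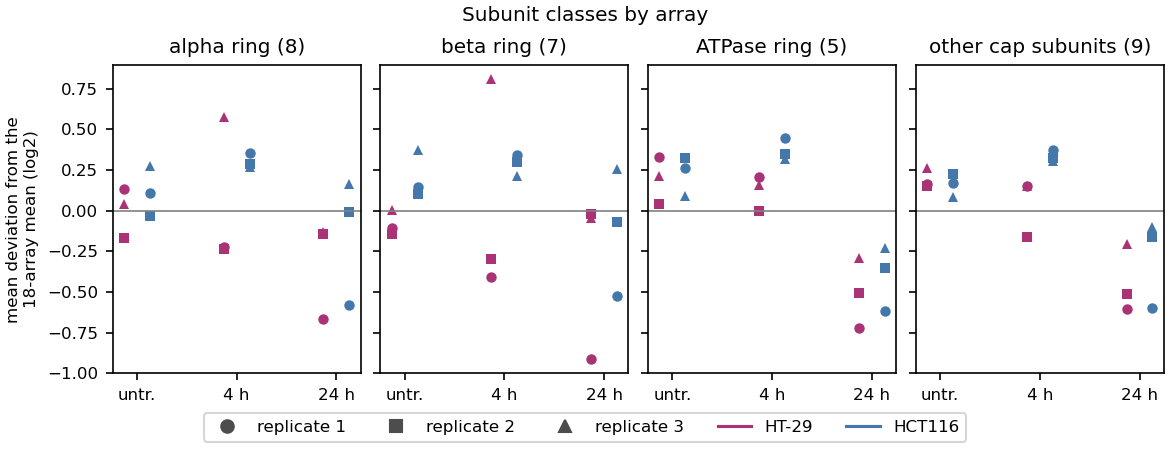
Mean deviation of the members of a class from their mean over 18 arrays (y axis, log2) on each array, by group (x axis, untreated as untr., ER 4 h and ER 24 h), for the alpha ring, the beta ring, the ATPase ring and the other cap subunits, with marker shape for the replicate and colour for the cell line. For both cap classes every 24 h array lies below every untreated array of its line, whereas in both ring classes they overlap in HT-29 and HCT116 cells.

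At 4 h no member was a DET in HT-29 (all transcripts 0.223%) or in HCT116 cells (0.29%), and 0 members passed after adjustment in limma. An unadjusted p under 0.05 was found for 0 members in either line, against 3.51% of all transcripts in HT-29 and 3.85% in HCT116 cells. In HT-29 cells 20 members were lower and 19 higher, with a median of -0.02. The 4 h array of replicate 3 stood above the others in the rings, with mean deviations of 0.57 for the alpha and 0.81 for the beta ring, against -0.23 and -0.41 for replicate 1 and -0.24 and -0.30 for replicate 2. In HCT116 cells 34 members were higher in direction, with a median of 0.14. Every 4 h array lay above every untreated array for 7 of them (4.49% of all transcripts and 9.22% of the bright single-gene ones). The bright single-gene transcripts had a median of 0.10 in this comparison, with 31.5% below 0. PSMC1 was the only member with every 4 h array below every untreated array in HT-29 cells (2.91%), where 0 had every array above (4.95%), at -0.21 (SE 0.23).

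Between 4 h and 24 h the HCT116 arrays gave more calls than either time against untreated cells. There were 9 DETs, all lower at 24 h, which were PSMC1, PSMC2, PSMC4, PSMD3, PSMD6, PSMD11, PSMD12, PSMD14 and PSME3 (all transcripts 2.04%, lower 0.785%, and lower 3.94% among the bright single-gene ones). Their differences ran from -0.75 for PSMD14 (SE 0.21) to -1.08 for PSMC4 (SE 0.29). PSMD12 had the smallest p, at -0.86 (SE 0.20, adjusted p = 0.154 in limma), with 14.58, 14.52 and 14.54 at 24 h against 15.54, 15.27 and 15.40 at 4 h. Thus 8 of the 9 were cap genes and 0 were ring genes. After adjustment 0 members passed, where 113 transcripts of the table did (0.0832%). An unadjusted p under 0.05 was found for 18 members (10.7%, and 25.1% among the bright single-gene ones). The count was 1, PSMD12, without the 24 h array of replicate 1, was 2, 3 and 4 without the 4 h arrays of replicates 1, 2 and 3, and was 7 to 12 when any 1 of the other arrays was left out. In HT-29 cells 0 members were DETs between 24 h and 4 h (0.906%) and 0 passed after adjustment in limma (0.0228%). There 11 had an unadjusted p under 0.05 (6.12%, and 16.8% among the bright single-gene ones). PSME3 had the smallest p of the members, at -1.02 (SE 0.31, adjusted p = 0.59 in limma), followed by PSMD11 at -0.75 (SE 0.23, adjusted p = 0.604 in limma).

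**Figure D5:**
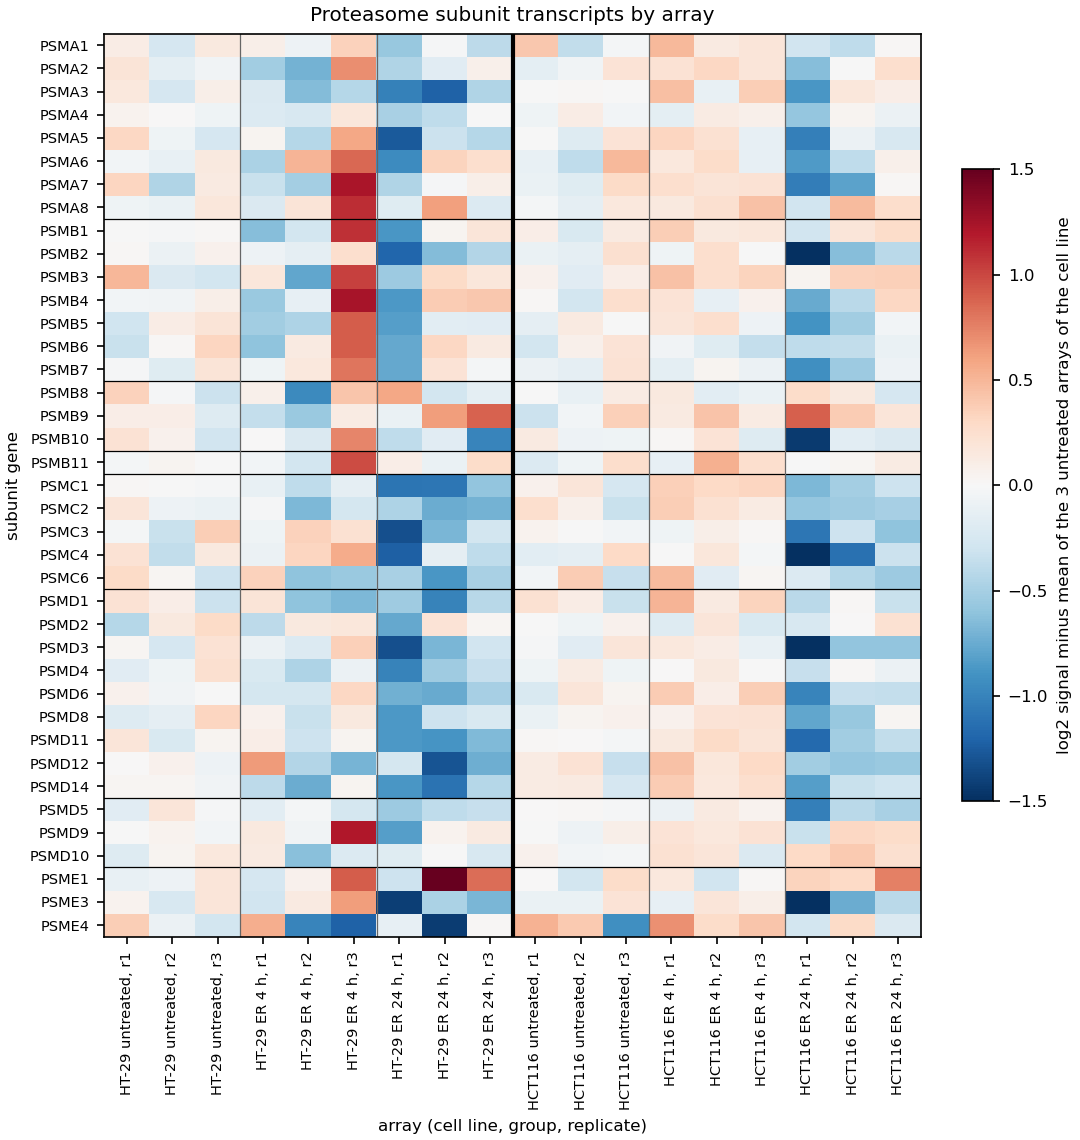
Log2 signal of each of the 39 subunit transcripts (rows) on each of the 18 arrays (columns, r1 to r3 for the replicates) minus the mean of the 3 untreated arrays of the same cell line, blue below and red above, with colours cut at 1.5 in either direction. The cap rows are blue in most 24 h columns of both lines, the ring rows are darkest blue on the replicate 1 arrays at 24 h, and the HT-29 array of replicate 3 at 4 h is red in the ring rows.

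The 2 cell lines were set side by side. At 24 h 30 of 39 members (76.9%) were lower in both lines, against 27.1% of all transcripts, and 9 (23.1%) were lower in both with an unadjusted p under 0.05 in each, against 0.284% of all transcripts. Shares over both lines were not computed for the bright single-gene transcripts alone. Without the 24 h arrays of replicate 1, 22 members were lower in both (56.4%, against 24.4% of all transcripts), and with replicates 2 and 3 alone 21 (53.8%, against 24.2%). Across the 39 members the differences of the lines had a Pearson r of 0.75 and a Spearman rho of 0.68, against 0.20 and 0.14 across all transcripts. The r of the members was 0.645 without the 24 h arrays of replicate 1 and 0.55 with replicates 2 and 3 alone. These are correlations across genes, which are not independent replicates and share the arrays. At 4 h 2 members (5.13%) were lower and 16 (41.0%) higher in both lines, against 23.5% and 25.8% of all transcripts, and r was -0.38 and rho -0.39 across the members, against 0 and -0.01 across all transcripts. The interaction of cell line and treatment called 0 members at 4 h (all transcripts 0.277%) and 0 at 24 h (0.322%). At 24 h 0 of the 39 interactions had an unadjusted p under 0.05 (3.6%) and none passed after adjustment in limma. They ran from -0.69 for PSMA3 to 0.48 for PSMA7 (SE 0.52), and with a median SE of 0.39 over all transcripts differences of that size could not be resolved. In untreated cells 0 members were called between HT-29 and HCT116 (0.284%), with a median of -0.04 and a range from -0.58 (PSMB6) to 0.57. After adjustment in limma 0 of all 135750 transcripts passed between the untreated lines, and 3 did with HT-29 replicates 2 and 3 alone. Whether the few calls between the untreated lines bear on their agreement at 24 h was not tested. Every HT-29 array lay below every HCT116 array for 6 members (6.54% of all transcripts) and above for 0 (3.69%). The lines were normalized separately per the methods, so a level set across them rests on both normalizations.

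Genes that work with the proteasome were counted from 3 lists. Of 14 assembly factors and cap partners outside the symbol rule, all measured, 0 were DETs at 24 h against untreated cells in either line, and the list medians were -0.39 in HT-29 and -0.11 in HCT116 cells. ADRM1, a ubiquitin receptor of the cap, was a DET between 24 h and 4 h in both lines, at -1.29 (SE 0.30, adjusted p = 0.361 in limma) in HT-29 and -1.11 (SE 0.29, adjusted p = 0.199 in limma) in HCT116 cells. It had 8.41, 9.08 and 9.40 at 24 h against 10.28, 9.84 and 10.63 at 4 h in HT-29 cells. In HCT116 cells it had 8.44, 9.26 and 9.54 against 10.27, 10.31 and 10.01. Untreated HT-29 cells had 9.66, 9.49 and 9.52, with every 4 h array above and every 24 h array below them. Part of the ADRM1 difference between 24 h and 4 h in HT-29 cells was thus a higher signal at 4 h. Untreated HCT116 cells had 9.51, 9.83 and 10.36, which overlapped both times. Of the NFE2L1 axis and ubiquitin supply 10 of 14 genes were measured and 0 were DETs in any comparison, and NFE2L1 itself was 0.18 (SE 0.25) in HT-29 and -0.07 (SE 0.18) in HCT116 cells at 24 h. Of 16 interferon and antigen presentation genes 14 were measured and 0 were DETs, with medians at 24 h of 0.33 in HT-29 and 0.33 in HCT116 cells. B2M, the light chain of class I molecules, was 0.36 (SE 0.36) in HT-29 and 0.56 (SE 0.21) in HCT116 cells, and HLA-E was 0.74 (SE 0.30) and 0.47 (SE 0.26). TAP2 and CALR of the same list had lower means at 24 h than in untreated cells of both lines.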

How the data were processed

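Total RNA of 18 cultures was amplified, labelled with biotin and hybridized to Affymetrix whole-transcriptome arrays. The authors deposited normalized log2 signals per transcript. Their methods state RMA with the oligo R package for each cell line separately, summarization by the mean and log2 transformation. TAC software is also named, and which of them made the deposited values is not given in the sources used here. Some signals exceed the range of a scanner on the log2 scale, so the scale was taken as labelled and folds share that doubt. Versions and genome build are not given in the sources used here.

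Of 138745 features 2995 control features were left out and 135750 transcripts tested. Symbols came from the platform annotation (36176 transcripts with 1 gene, 1119 with several, 98455 unnamed). 49 transcripts carried a member's symbol, and 31 pseudogene transcripts were left out. PSMB2, PSMC1, PSMC4, PSMC6 and PSME3 had several transcripts. lmFit and eBayes of limma 3.58.1 under R 4.3.3 were run on the 9 arrays of each cell line, and interactions and untreated lines in a fit of all 18. P-values were adjusted over all transcripts. The number of arrays limits the precision: the median SE was 0.29 in HT-29 and 0.24 in HCT116 cells. The steps were tested on simulated data.

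The members, lists and tests were chosen with earlier results of these data known. Genes were named where they were DETs, where they had the 2 smallest p of their class at a time against untreated cells, and where they were immunoproteasome subunits, the subunits these replace or activators; a few others were named after their values were seen. Listed partners were named where they were DETs, and NFE2L1, B2M, HLA-E, TAP2 and CALR after their values were seen. Other settings tried were median centring, quantile normalization, gene means, a signal filter, a replicate block and other limma settings. A Student's t-test without permutation, other sets of arrays and the omission of each array were also tried. Tables and figures were made with the R package data.table, version 1.17.8, Python 3.11.15, pandas 2.3.3, numpy 2.4.6 and matplotlib 3.10.9.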

Additional observations from a re-analysis of the deposited data

Results flagged for a closer look

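The kept PSMC1 transcript stood on opposite sides of untreated cells at 4 h. Every HT-29 array at 4 h lay below every untreated array, at -0.21 (SE 0.23). Every HCT116 array at 4 h lay above, at 0.33 (SE 0.20). The difference of the responses was -0.53 (SE 0.28, adjusted p = 1 in limma), which did not pass the test. The second PSMC1 transcript did not repeat this in HT-29 cells. It had 12.11, 12.01 and 13.10 at 4 h against 12.38, 12.57 and 12.53 untreated, so the groups overlapped. Its HCT116 arrays at 4 h lay above the untreated ones.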

How the results depend on the processing

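The median over the members kept its sign in both lines at 24 h under every alternative run, and 0 members were DETs at 4 h, in the interactions or between untreated lines with any array left out. Counts of DETs among the members moved more. For HT-29 24 h against untreated (2), the count was 1 with the 6 arrays compared alone, 4 with a joint fit of all 18 arrays, 1 with median centring, 1 with transcripts above the median signal and 0 with replicates 2 and 3 alone. For HT-29 24 h against 4 h (0), it was 4 with a joint fit of all 18 arrays and 2 with quantile normalization. For HCT116 24 h against untreated (2), it was 1 with the t-test without permutation (PSMD10, higher) and 0 with the 6 arrays compared alone. It was 4 with a joint fit of all 18 arrays, 1 with gene means and 0 with array weights. With replicates 2 and 3 alone it was 0, and the median was -0.17. For HCT116 24 h against 4 h (9), it was 3 with the t-test without permutation and 5 with only the 6 arrays compared. With replicates 2 and 3 alone it was 0, and the median was -0.31. HCT116 replicates 2 and 3 alone, and the settings of the counts and correlations over both lines, were chosen after seeing the data. Counts of DETs were not stable at this number of arrays, and the cause was not tested.

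With each array left out in turn, the count of DETs ran from 0 to 2 for HT-29 24 h against untreated. It ran from 0 to 2 for HT-29 24 h against 4 h. For HCT116 cells it ran from 0 to 6 for 24 h against untreated and from 1 to 12 for 24 h against 4 h. The 1 call for HT-29 24 h against 4 h without the 24 h array of replicate 1 was higher. The other calls of these fits were lower. The medians ran from -0.48 to -0.26 (HT-29 24 h against untreated), -0.54 to -0.22 (HT-29 24 h against 4 h), -0.55 to -0.19 (HCT116 24 h against untreated) and -0.63 to -0.31 (HCT116 24 h against 4 h), the smallest sizes all without the 24 h array of replicate 1. At 4 h they ran from -0.20 to 0.10 in HT-29 and from 0.10 to 0.20 in HCT116 cells.

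The replicate numbers of the labels were not taken as pairs, since the correlations of deviations between arrays of 1 number were not all over 0.1: they ran from 0.105 to 0.50 for replicate 1, all over 0.1 in both lines, from -0.15 to 0.20 for replicate 2 and from 0.04 to 0.245 for replicate 3. With the number as a replicate block, 2 members were DETs in HT-29 24 h against untreated, 1 in HT-29 24 h against 4 h, 3 in HCT116 24 h against untreated and 10 in HCT116 24 h against 4 h.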
